A study of Mus musculus with 24 samples.

Results

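Facial skin was compared with the skin of the ventral trunk in the absence of a wound at the sampled spot. The comparison rests on 8 of the 24 libraries of the series, chosen by their labels alone: 4 of unwounded cheek skin and 4 of unwounded abdomen skin, each from a different mouse. All mice were CD1, an outbred stock kept as an in-house colony, 7 weeks old, with hair cycles labelled as coordinated in telogen, the resting phase, and all were shaved. No group was genetically modified or given an agent other than anaesthetic and analgesic. Every mouse carried excised wounds at its site, 1 on the cheek or 2 on the abdomen, and the unwounded sample was a 2 mm full-thickness punch taken beside the wound on day 3, so none came from a mouse without a wound. Nothing in the labels says whether mice of 1 site were housed, wounded or processed together, and p-values measure the spread between mice only. The cheek site lay over the zygomatic arch, between eye and ear. RNA came from whole skin, so fewer cells of a type and less RNA per cell cannot be told apart. The 4 libraries of unwounded back skin entered the statistical model only to estimate the spread between mice.

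The dermis of the face derives from the cranial neural crest, and that of the ventral trunk from lateral plate mesoderm. Hox genes encode homeodomain transcription factors that lie in 4 clusters and are switched on in nested domains along the head-to-tail axis of the embryo, and the cranial neural crest that forms the upper face is known for lacking most of this code. Mouse skin also holds a sheet of striated muscle beneath the dermis, which in the face is continuous with the muscles of expression, together with fat, hair follicles and sebaceous glands.

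The epidermal keratin gene Krt5 and the dermal collagen gene Col1a1 were abundant in all 8 libraries. Krt5 stood at 1419, 1429, 1875 and 1526 FPKM (sequenced fragments per kilobase of a gene's transcripts, relative to all mapped fragments) in cheek mice 1 to 4, and at 1666, 1806, 2073 and 1671 in abdomen mice 1 to 4. Values are given below in this order of mice, and gene coordinates are those of RefSeq on GRCm38.p6. The Y-linked gene Ddx3y was between 12.6 and 20.1 FPKM in every one of the 8 libraries. Pearson correlations of log2(FPKM + 0.5) were between 0.940 and 0.987 within cheek, between 0.950 and 0.980 within abdomen and between 0.906 and 0.976 across the sites. FPKM values summed to between 490830 and 561753 per library. They carry no read counts, so the depth is unknown, and a value of 0 means only that a gene was listed at 0.

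Some libraries stood apart from the rest of their group in tissue makeup. The 29 tested genes of the skeletal muscle contraction list had a mean log2(FPKM + 0.5) of 8.59, 8.70, 7.87 and 8.03 in the cheek libraries and of 7.96, 3.75, 5.72 and 8.07 in the abdomen libraries. These genes made up between 3.68% and 7.49% of the summed FPKM in cheek, and 4.47%, 0.182%, 0.813% and 4.98% in abdomen. The values of abdomen mice 2 and 3 were low, and abdomen mice 1 and 4 lay within the cheek range. Acta1, skeletal alpha-actin, stood at 6933, 7221, 3845 and 4997 FPKM in cheek and at 5879.6, 181, 1023 and 4839.8 in abdomen. Cheek mouse 4 held transcripts of a growing hair shaft, although the labels place all mice in telogen. Krt71, a keratin of the inner root sheath, was listed at 0.31, 0.14, 3.06 and 1651 FPKM in cheek and at 0.03, 0.08, 0.20 and 0.03 in abdomen, and Krt31, a keratin of the hair cortex, at 0.34, 0.12, 0.23 and 328 and 0.27, 0, 0.21 and 0.16. Cheek mouse 3 held low levels of some of these genes. Of 25 hair shaft and inner root sheath genes in the table, 6 passed the filter on low values and 0 were called different between the sites by limma, also 0 at an unadjusted p under 0.05.

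Of 13956 genes that reached 0.5 FPKM in 4 or more of the 12 libraries of unwounded skin, 358 (2.57%) differed between cheek and abdomen at a limma adjusted p under 0.05. Of these, 186 (1.33% of the tested genes) were higher and 172 (1.23%) lower in cheek. These shares are the background for the counts of called list members below. The 4 cheek libraries all lay above the 4 abdomen libraries for 860 tested genes (6.16%) and all below for 626 (4.49%), and 348 of the 358 called genes were among them. The size of the difference on the log2(FPKM + 0.5) scale had a median of 0.83 for genes higher in cheek (range 0.40 to 3.03) and of 0.85 for genes lower in cheek (range 0.38 to 4.38). The median over all tested genes was 0.03. The 13956 genes included 2650 at an unadjusted p under 0.05. This scale understates the change of genes near 0 FPKM.

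**Figure D1:**
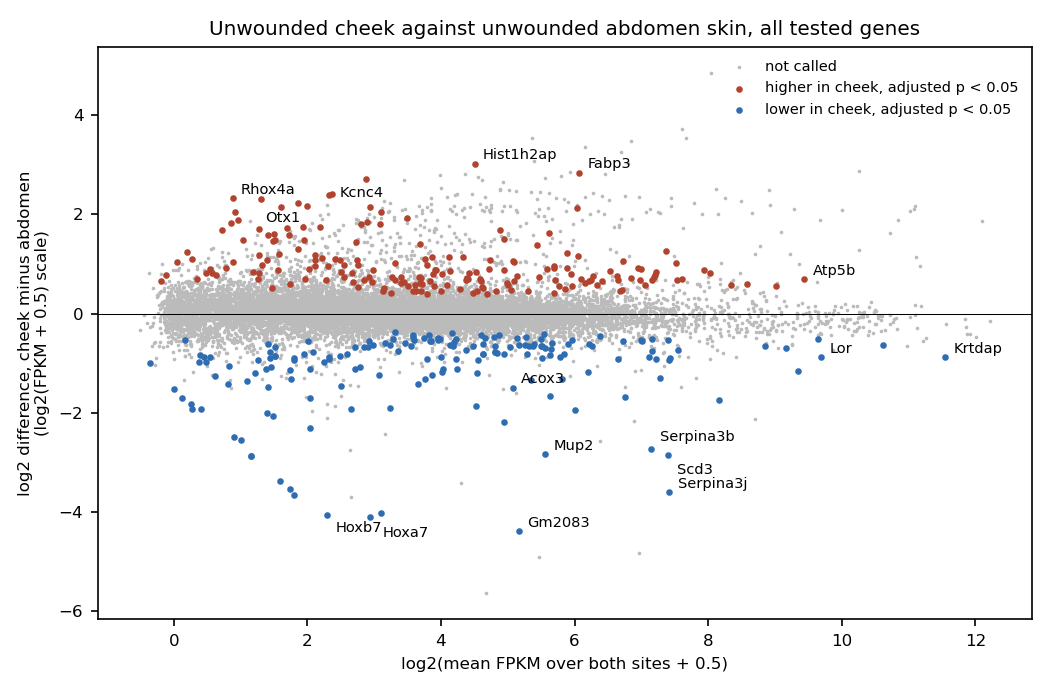
Each point is 1 tested gene, with log2 of its mean FPKM over the 8 libraries (plus 0.5) on the x axis and the log2 difference, cheek minus abdomen, on the y axis. Red points are the 186 genes called higher and blue points the 172 called lower in cheek, grey points the rest. Low-abundance Hox genes form the lower left edge of the plot, and abundant keratinocyte genes such as Krtdap and Lor sit below 0 at the right.

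The number of called genes depended on the libraries in the model. With the muscle level of each library as a covariate, 52 genes were called, 14 higher and 38 lower in cheek, 46 of them among the 358. Without abdomen mice 2 and 3, 33 genes were called, 28 of them among the 358. All 186 genes higher and all 172 lower in cheek kept their sign with the covariate, and 13 and 33 of them were still called. Of 95 called genes named here by symbol, 24 were called both with the covariate and without abdomen mice 2 and 3, namely 13 Hox genes, Otx1, Rhox4a, Kcnc4, Pcp4l1, Mup2, Serpina3b, Akr1c21, Mug1, Klk1, Cyp2f2 and Acox3. Another 12 were called with the covariate and not without those mice: Hoxc5, Tbx5, Adh1, Wfdc21, Scd3, Mug2, Th, Thbs4, Dio2, Asb10, Coq8a and Fabp3 (adjusted p from 0.0542 to 0.206 without them). The other 59 were called in neither, with adjusted p from 0.0548 to 0.43 with the covariate and from 0.0727 to 0.516 without those mice. Leaving out 1 library at a time gave between 81 and 693 calls, with 96 without abdomen mouse 2, 83 without abdomen mouse 3, 129 without cheek mouse 1, 81 without cheek mouse 2, 207 without cheek mouse 4 and 693 without abdomen mouse 4. With only the 8 cheek and abdomen libraries in the model, 113 genes were called. In all, 26 genes were called under each of 24 other ways of processing the values: 16 Hox genes, the head transcription factor gene Otx1, the potassium channel gene Kcnc4, Pcp4l1, and the 7 genes Mup2, Serpina3b, Akr1c21, Mug1, Klk1, Cyp2f2 and Acox3. Of those named singly here, Akr1c21, Mug1, Hoxa7, Hoxa9, Hoxa10, Hoxb6, Hoxb7, Hoxb8, Hoxc9 and Hoxc10 were under 0.5 FPKM in every cheek library. Further Hox genes of the 26, not named singly, were also under 0.5 FPKM in every cheek library. Rhox4a, named further above, was under 0.5 FPKM in every abdomen library. Such genes passed the filter only through other sites, so a difference in them is partly set by the filter. The split between genes higher and lower in cheek also moved with the scaling of the libraries, from 186 against 172 to 105 against 174 with median-ratio scaling and 142 against 282 with quantile normalization.

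**Figure D2:**
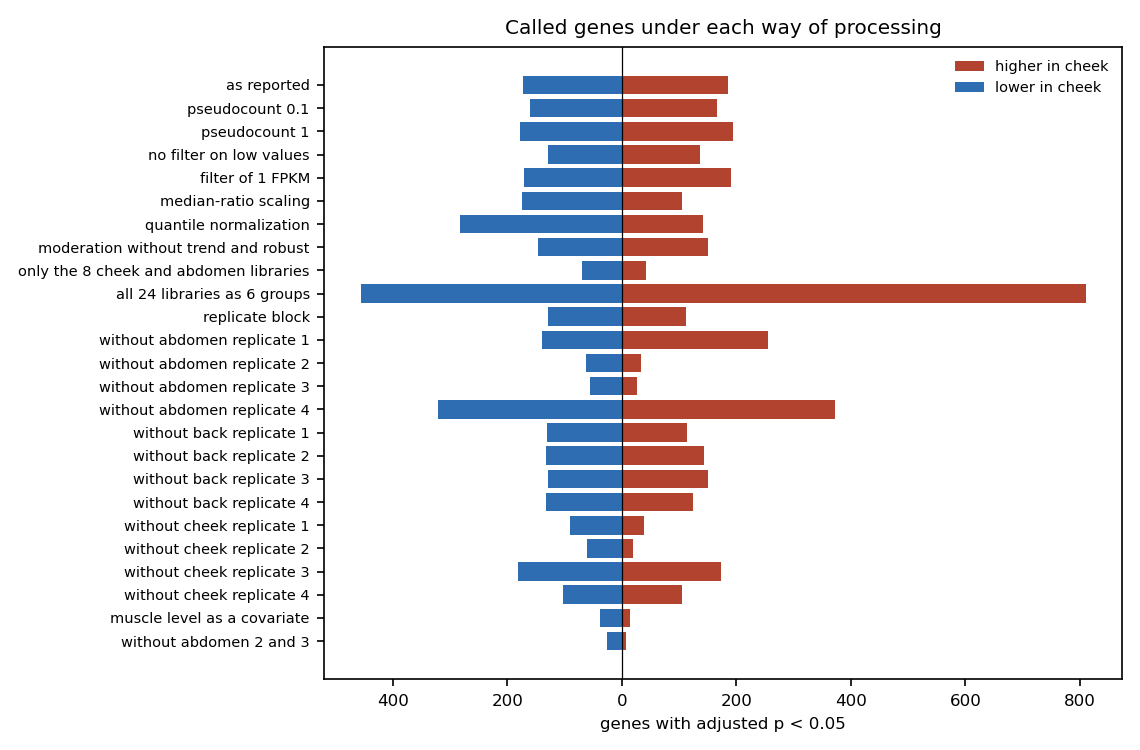
Number of genes with an adjusted p under 0.05 (x axis), higher in cheek to the right in red and lower to the left in blue, for the reported fit and each of 24 other ways of processing (y axis; the number after "replicate" is the mouse). Calls are fewest, 33, without abdomen mice 2 and 3, and most, 1266, when all 24 libraries share 1 model.

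Hox genes of the HoxA, HoxB and HoxC clusters were lower in the face. Of 37 Hox genes in the table, 29 were tested, 18 were lower (against 1.23% of all tested genes) and 2 higher in cheek, and 16 of the 18 were called under every other way of processing. With paralog group numbers running from the head end to the tail end of each cluster, all 15 genes of groups 5 to 10 in HoxA, HoxB and HoxC were lower in cheek, a grouping chosen after the values were seen. Of the 18 genes, 11 were under 0.5 FPKM in every cheek library and passed the filter only through the trunk sites, so that a difference in these 11 is partly set by the filter. No fold change is given for Hoxc10, Hoxb8, Hoxa9 and Hoxa6, which every cheek library lists at 0. Hoxa6 and Hoxc5 were the 2 of the 18 that some other way of processing did not call.

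Hoxa7 and its neighbour Hoxa9 lie side by side on chromosome 6, and the 300 bases around their start sites (250 before and 50 after, GRCm38.p6, from RefSeq, read 5′ to 3′ along the minus strand) are shown because both genes were near 0 in the face and present in every trunk library. Capitals mark matches on either strand to the TATA box (TATAAA), the CCAAT box (CCAAT), the GC box (GGGCGG) or the Pbx-Hox site (TGATTNAT), and adjoining or overlapping matches would merge into 1 run. The Hoxa7 window, chr6:52218524-52218823, holds none of them, and that of Hoxa9, chr6:52227321-52227620, holds 1 GC box.
Hoxa7: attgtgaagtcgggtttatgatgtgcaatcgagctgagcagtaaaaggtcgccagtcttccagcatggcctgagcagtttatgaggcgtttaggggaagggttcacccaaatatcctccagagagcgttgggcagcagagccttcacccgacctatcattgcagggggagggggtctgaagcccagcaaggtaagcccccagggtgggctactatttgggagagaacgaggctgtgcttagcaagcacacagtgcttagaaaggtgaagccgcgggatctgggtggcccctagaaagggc
Hoxa9: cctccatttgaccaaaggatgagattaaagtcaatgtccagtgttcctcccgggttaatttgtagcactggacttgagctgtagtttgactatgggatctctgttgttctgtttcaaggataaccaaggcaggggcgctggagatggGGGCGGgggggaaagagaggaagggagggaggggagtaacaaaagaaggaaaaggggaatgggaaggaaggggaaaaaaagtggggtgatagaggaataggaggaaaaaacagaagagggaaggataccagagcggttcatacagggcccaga
Over all promoter windows of the table, 35.7% hold a GC box, 37.4% a CCAAT box, 13.6% a TATA box and 3.22% a Pbx-Hox site. Windows were found for 152 of the 186 genes higher in cheek and for 121 of the 172 lower in cheek. A TATA box was in 17.5% of the 154 windows of genes lower in cheek, in 8.47% of the 189 windows of genes higher in cheek and in 8.03% of the windows of all tested genes. For the GC box the shares were 42.9%, 54.5% and 59.3%, and for the Pbx-Hox site 5.19%, 1.06% and 1.57%. These are descriptions of letters in windows and were not tested.

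In the HoxA cluster, Hoxa7 (chr6:52215623-52218573) stood at 0.44, 0.28, 0.43 and 0.19 FPKM in cheek and 15.02, 9.58, 17.8 and 13.4 in abdomen (log2 difference -4.09 ± 0.17 SE, adjusted p = 3.7e-08). Here and for Otx1, Kcnc4 and Serpina3b below, an exact two-sided permutation test of the FPKM values gave p = 0.0286, the smallest that 4 against 4 libraries allow. Hoxa9 (chr6:52223097-52227370) was listed at 0 in all cheek libraries against 7.37, 3.78, 6.96 and 5.8 in abdomen (adjusted p = 2.87e-07). Hoxa10 stood at 0, 0, 0.03 and 0 and 6.26, 2.64, 5.53 and 5.59 (adjusted p = 2.06e-05). None of the 4 cheek values came near the lowest abdomen value for these 3 genes. Hoxa5 was reduced but not near 0 in cheek, at 0.79, 1.05, 1.18 and 0.48 against 7.16, 3.64, 7.92 and 6.85 FPKM (log2 difference -2.30 ± 0.22, adjusted p = 0.000142). The more anterior Hoxa3 and Hoxa4 did not pass the test. Hoxa4 stood at 1.68, 1.18, 1.63 and 1.25 in cheek and 1.75, 1.11, 1.23 and 1.57 in abdomen. Hoxa2, the most anterior Hox gene active in the embryonic head, was higher in cheek, at 3.74, 3.33, 3.83 and 2.47 against 1.56, 1.42, 1.81 and 1.51 FPKM (log2 difference 0.88 ± 0.16, adjusted p = 0.0159). Its groups did not overlap. Hoxa5 was still called with any 1 library left out. Hoxa2 lost its call without abdomen mouse 2 or cheek mouse 1 or 2 (adjusted p up to 0.0597).

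All 8 tested HoxB genes were lower in cheek, with a median fitted log2 difference of -1.96 that includes Hoxb8, listed at 0 in cheek. Hoxb7 (chr11:96285604-96290163) stood at 0, 0.10, 0 and 0.05 FPKM in cheek and 10.03, 7.35, 12.3 and 5.57 in abdomen (adjusted p = 1.84e-07), and Hoxb6 (chr11:96292814-96301569) at 0, 0, 0 and 0.09 and 5.32, 3.29, 2.74 and 2.41 (adjusted p = 1.04e-05). The anterior members Hoxb2 and Hoxb4 kept a signal in cheek. Hoxb2 stood at 1.38, 2.4, 1.67 and 3.12 against 12.4, 8.93, 8.69 and 7.66 FPKM (log2 difference -1.93 ± 0.20, adjusted p = 0.000219), and Hoxb4 at 0.43, 0.78, 0.64 and 0.49 against 4.92, 3.65, 4.42 and 3.16 (log2 difference -2.06 ± 0.17). Hoxb1 was at 0.06 FPKM or below in all 8 libraries.

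In HoxC, 5 of 7 tested genes were lower in cheek. Hoxc8 (chr15:102990539-102994275) stood at 0.28, 0.23, 0.75 and 0.88 FPKM in cheek and 15.4, 17.03, 17.1 and 13.3 in abdomen (log2 difference -4.02 ± 0.19, adjusted p = 1.26e-07), and Hoxc9 (chr15:102977032-102984444) at 0, 0, 0 and 0.11 and 6.2, 4.73, 6.52 and 5.15 (adjusted p = 3.7e-08). Hoxc6 was present at both sites, at 2.67, 3.51, 3.2 and 4.59 and 16.7, 12.9, 13.3 and 14.3 FPKM (log2 difference -1.91 ± 0.14, adjusted p = 9.6e-06). Hoxc13 took a different course from the rest of its cluster. This gene, known for its role in hair keratin expression, stood at 3.22, 2.63, 8.27 and 40.7 in cheek and 3.76, 3.37, 5.12 and 3.76 in abdomen, and its highest value fell in cheek mouse 4, the library with the hair shaft keratins (adjusted p = 0.528).

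The HoxD cluster did not share the pattern of the other clusters. Of 5 tested genes, 0 were lower in cheek, and Hoxd3 was called higher, at 1.81, 1.57, 1.47 and 0.80 against 0.41, 0.69, 0.65 and 0.53 FPKM (log2 difference 0.81 ± 0.20, adjusted p = 0.0494, called under 5 of 24 other ways of processing). Hoxd3 lost its call without any library other than back mouse 2 or cheek mouse 4 (adjusted p up to 0.153). Hoxd8, the most abundant tested Hox gene of the cheek at 27.7, 28.4, 20.2 and 16.3 FPKM, stood at 18.6, 14.1, 14.99 and 18.1 in abdomen (adjusted p = 0.19), and Hoxd9 at 9.55, 9.63, 8.3 and 6.74 and 7.52, 4.7, 6.52 and 6.6 (adjusted p = 0.172). The 9 tested genes for the TALE homeodomain proteins, which bind DNA together with Hox proteins, included 0 called genes by limma and 3 at an unadjusted p under 0.05.

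**Figure D3:**
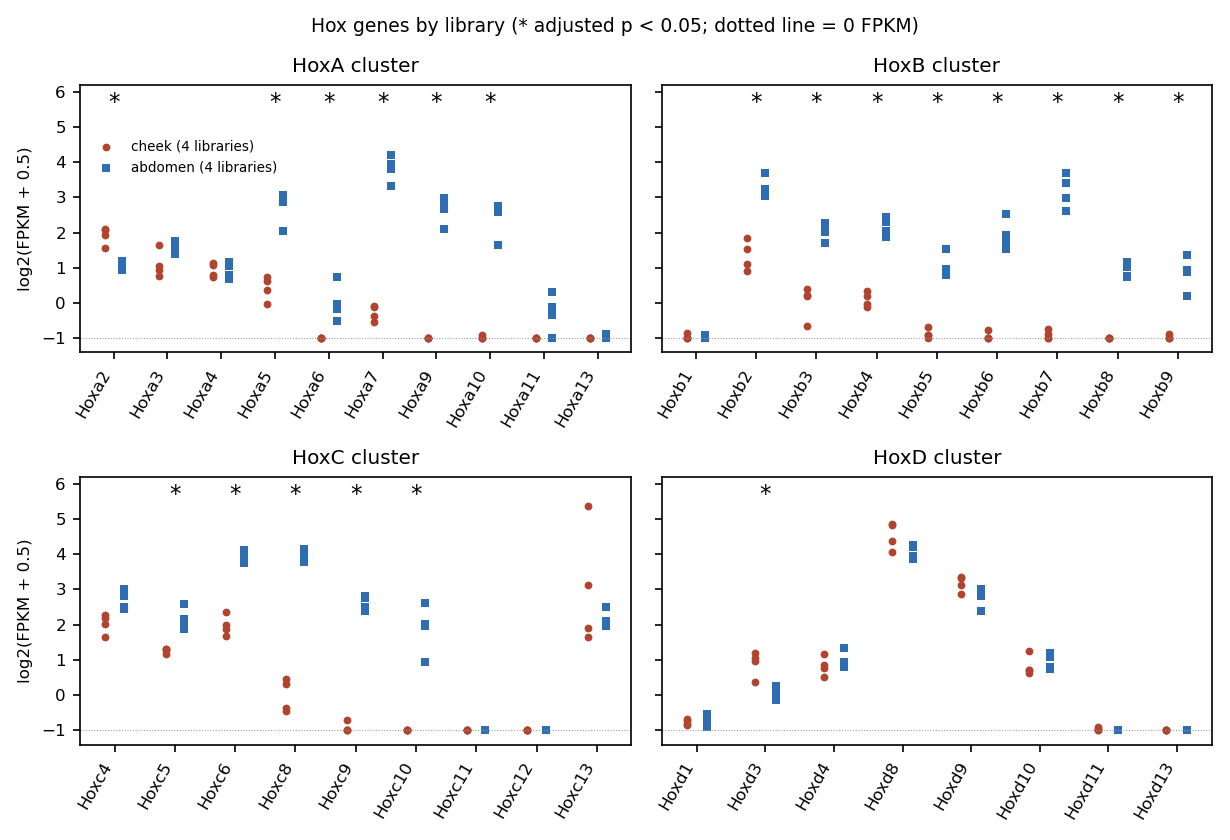
Hox genes in cluster order (x axis) with the value of each library as log2(FPKM + 0.5) (y axis), cheek as red circles and abdomen as blue squares, 4 mice each. Asterisks mark an adjusted p under 0.05. From paralog group 5 to 10 the cheek points of HoxA, HoxB and HoxC lie below every abdomen point, while the HoxD genes overlap, except Hoxd3, whose groups nearly touch.

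Other patterning genes differed in small numbers. Of 23 tested craniofacial transcription factor genes, 1 was called, and 17 had a positive difference (list median 0.28). It was Otx1, a homeobox gene of the head (chr11:21994764-22001651), at 3.88, 3.99, 8 and 5.74 FPKM in cheek and 0.57, 2.16, 0.44 and 0.31 in abdomen (log2 difference 2.23 ± 0.33, adjusted p = 0.00582). Abdomen mouse 2 stood above the other abdomen mice and still below every cheek mouse. Otx1 was called under all 24 other ways of processing. Foxl2, a forkhead gene of the developing eyelid, was listed at 0.58, 0.53, 0.26 and 0.52 in cheek and 0, 0, 0 and 0.02 in abdomen, too low to enter the test, and it was picked out after its values were seen. Msx2, which also acts in hair follicles, stood at 1.64, 1.46, 5.11 and 34.2 in cheek and 2.93, 2.09, 3 and 2.9 in abdomen, highest in cheek mouse 4 with its hair shaft transcripts (adjusted p = 0.644). The Rhox homeobox gene Rhox4a (chrX:37265067-37270136) stood at 2.12, 1.93, 3.46 and 2.8 in cheek and 0.15, 0.29, 0 and 0 in abdomen (log2 difference 2.34 ± 0.20, adjusted p = 3.4e-05), and the cluster holds near-identical copies between which reads may be split. All abdomen values of Rhox4a were under 0.5 FPKM and all back values 0, so that it was tested only through its 4 cheek libraries, its difference is partly set by the filter, and it could not be tested with a cheek library left out.

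Among 12 tested transcription factor genes of the limb and ventral trunk, 2 were lower in cheek, against 1.23% of all tested genes. Tbx5, which acts in forelimb, body wall and heart development (chr5:119796514-119885220), stood at 0.89, 0.41, 0.59 and 0.97 FPKM in cheek and 2.18, 2.75, 2.77 and 2.58 in abdomen (log2 difference -1.36 ± 0.17, adjusted p = 0.0016). Osr2 stood at 34.2, 29.1, 31.5 and 18.5 and 57.8, 51.99, 46.3 and 40.2 (log2 difference -0.81 ± 0.19, adjusted p = 0.0429). For neither gene did the groups overlap. Of 7 tested dorsal genes, 2 were higher in cheek, against 1.33% of all tested genes. Tbx15, a T-box gene of the dorsal dermis, stood at 37.4, 43.4, 29.03 and 30.4 in cheek and 20.9, 11.3, 10.5 and 26.02 in abdomen (log2 difference 1.09 ± 0.25, adjusted p = 0.0419). Zic1, a zinc finger gene of somite derivatives, stood at 0.77, 0.60, 0.52 and 0.40 and 0.16, 0.14, 0.11 and 0.32 (adjusted p = 0.0419), low at both sites beside 5.53 ± 0.52 (SD, n = 4) in unwounded back. All abdomen values of Zic1 were under 0.5 FPKM, so it passed the filter only through the other sites, which partly sets its difference. En1 did not pass the test, at 2.33, 1.82, 2.79 and 2.38 against 2.67, 3.73, 4.47 and 3.09 FPKM. The agouti gene, listed as a, whose product switches pigment type and which is known for a belly-specific promoter, was lower in cheek, at 1.42, 0.60, 1.27 and 1.99 FPKM against 3.24, 3.3, 3 and 3.23 (log2 difference -1.08 ± 0.26, adjusted p = 0.0465), and was picked out after its values were seen. Tbx5 was still called with any 1 library left out. Osr2, Tbx15, Zic1 and agouti lost their calls without abdomen mouse 2 or 3, back mouse 2 or 4 or cheek mouse 1 or 2 (adjusted p up to 0.132). So did Osr2 without abdomen mouse 1, back mouse 1 or cheek mouse 3 or 4, Tbx15 without back mouse 1 or 3 or cheek mouse 4, Zic1 without abdomen mouse 1, back mouse 1 or 3 or cheek mouse 3 and agouti without abdomen mouse 1 or 4 or cheek mouse 3. Without both abdomen mice 2 and 3 the adjusted p of Tbx5 was 0.0619.

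A share of the genes of mitochondrial respiration were higher in cheek. Of 80 tested nuclear genes for subunits of the respiratory chain and ATP synthase, 16 were higher and 0 lower in cheek. Over all tested genes the shares were 1.33% higher and 1.23% lower. In the list, 74 genes had a positive difference, and the list median was 0.46, against 0.03 over all tested genes. Of 13 citric acid cycle genes, a list written after the values were seen, 7 were higher and 0 lower (median 0.55). Atp5b, the catalytic ATP synthase subunit and the most abundant gene called higher in cheek, stood at 859.9, 951, 743 and 871 FPKM in cheek and 641, 431, 532 and 525 in abdomen (log2 difference 0.69 ± 0.14, adjusted p = 0.0246). Sdhb, a subunit of succinate dehydrogenase, stood at 191, 230.2, 151 and 186 and 134, 80.99, 102 and 107 (log2 difference 0.84 ± 0.17). Cox5a, a subunit of cytochrome c oxidase, stood at 352, 377, 260.1 and 331 and 259, 138, 176 and 189 (log2 difference 0.81 ± 0.18). For each of these 3 genes the lowest abdomen value was that of mouse 2, and no abdomen value reached the lowest cheek value, by a margin of about 1 FPKM for Cox5a. Atp5b, Sdhb and Cox5a lost their calls without abdomen mouse 2 or 3 or cheek mouse 1, 2 or 4 (adjusted p up to 0.122). So did Cox5a without back mouse 1 or 4. Atp5a1 and Ndufa4, the next most abundant genes called higher, had means of 463 ± 44.7 and 617 ± 80.5 FPKM in cheek against 306 ± 24.8 and 419 ± 54.04 in abdomen (SD, n = 4). The Cox5a promoter window (chr9:57520982-57521281, plus strand, RefSeq, GRCm38.p6) is shown as the example of this group, with its 2 GC boxes, both on the opposite strand, in capitals.
Cox5a: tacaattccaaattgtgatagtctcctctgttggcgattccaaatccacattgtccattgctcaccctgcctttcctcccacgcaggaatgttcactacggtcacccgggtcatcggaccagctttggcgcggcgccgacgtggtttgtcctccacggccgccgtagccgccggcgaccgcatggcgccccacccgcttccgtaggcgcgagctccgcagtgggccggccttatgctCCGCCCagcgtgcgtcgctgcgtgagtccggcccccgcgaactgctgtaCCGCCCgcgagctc

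The levels of both lists stood beside the muscle level of the libraries as follows. The mean log2(FPKM + 0.5) of the respiratory list was 7.48, 7.58, 7.26 and 7.33 in cheek and 7.27, 6.58, 6.98 and 6.89 in abdomen, with abdomen mouse 1 inside the cheek range. Abdomen mouse 4, the highest of its site in muscle level, lay below abdomen mice 1 and 3 in this list. For the citric acid cycle list it was 6.69, 6.85, 6.38 and 6.52 and 6.15, 5.69, 5.86 and 6.13, with all 4 abdomen libraries below all cheek libraries. Of the 29 contraction genes themselves, all had a positive difference (median 2.04), 0 were called by limma and 14 had an unadjusted p under 0.05. Their log2 deviations from the gene means over the 8 libraries summed to 15.6 to 39.4 in cheek and to -104 to 21.4 in abdomen. Both with the muscle level as a covariate and without abdomen mice 2 and 3, 0 genes of the respiratory list and 0 of the citric acid cycle list were called, and the list medians were 0.27 and 0.38 with the covariate and 0.34 and 0.44 without those mice. The respiratory list also had 0 calls without abdomen mouse 2, abdomen mouse 3, cheek mouse 1 or cheek mouse 2, 36 without abdomen mouse 1 and 10 without cheek mouse 4, and it had 8 with median-ratio scaling. The citric acid cycle list had 1 call without each of the first 4 of these libraries and 3 without cheek mouse 4.

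**Figure D4:**
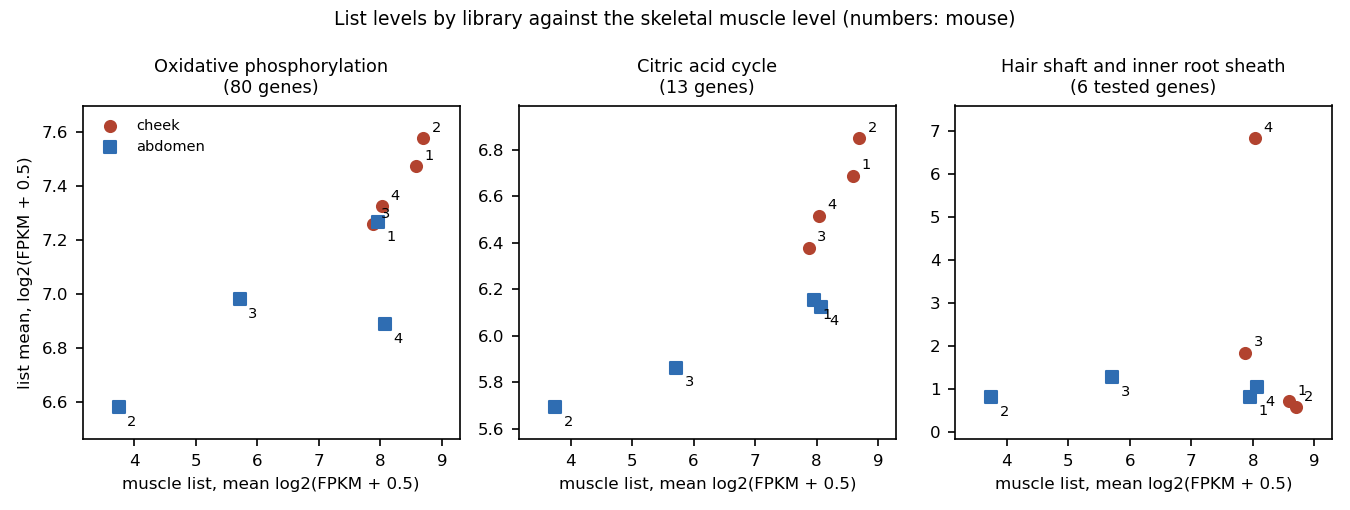
Each point is 1 library, with the mean log2(FPKM + 0.5) of the 29 muscle contraction genes on the x axis and that of a list on the y axis, cheek in red and abdomen in blue, with the mouse number. Abdomen mice 2 and 3 lie at 3.75 and 5.72 on the muscle axis, the other 6 libraries between 7.87 and 8.70, and only cheek mouse 4 is high for the hair shaft list.

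Other genes active in muscle were called higher in cheek. Fabp3, the muscle fatty acid binding protein, stood at 110.5, 173, 87.3 and 84.03 FPKM in cheek and 35.7, 4.24, 9.37 and 31.1 in abdomen (log2 difference 2.85 ± 0.63, adjusted p = 0.0475). Asb10, an ankyrin repeat protein with a SOCS box, stood at 14.6, 15.7, 7.5 and 9.5 and 2.74, 0.11, 0.72 and 3.94 (log2 difference 2.71 ± 0.56). Vgll2, a cofactor of TEAD factors in muscle, stood at 7.9, 6.95, 4.9 and 3.75 and 1.89, 0.15, 0.43 and 1.98 (log2 difference 2.16 ± 0.46), and Coq8a, needed for coenzyme Q synthesis, at 133, 136, 71.2 and 74.6 and 39.5, 9.08, 16.4 and 39.7 (log2 difference 2.14 ± 0.45). In all 4 genes the abdomen mice 2 and 3 were far below abdomen mice 1 and 4. With the muscle level as a covariate the adjusted p was 0.0332 for Fabp3, 0.0131 for Asb10 and 0.0171 for Coq8a, and 0.135 for Vgll2, and without abdomen mice 2 and 3 none of the 4 was called (adjusted p from 0.119 for Asb10 to 0.29 for Vgll2). Hk2, the hexokinase of muscle and fat, was higher in cheek at 20.5, 23.96, 15.4 and 18.3 against 9.37, 6.16, 6.96 and 12.5, while Pfkl, the liver-type phosphofructokinase, was lower at 8.9, 9.68, 9.45 and 9.16 against 12.2, 16.4, 15.7 and 11.4. These were the 2 of 17 glycolysis genes called, and 11 of the list were higher and 3 lower at an unadjusted p under 0.05. Hk2, Fabp3, Asb10, Vgll2, Coq8a and Pfkl lost their calls without abdomen mouse 2 or 3 or cheek mouse 1 or 2 (adjusted p up to 0.15). So did Fabp3 without back mouse 1, 2, 3 or 4 or cheek mouse 3 or 4, Asb10 without back mouse 1 or 4 or cheek mouse 4, Vgll2 without back mouse 1 or 4 or cheek mouse 3 or 4, Coq8a without back mouse 1, 2, 3 or 4 or cheek mouse 4 and Pfkl without back mouse 1 or cheek mouse 3 or 4. Vgll2 was the 1 gene called among 10 myogenic regulators, and 1 of these had a negative difference. Myod1, a master regulator of muscle fate, stood at 5, 5.6, 4.37 and 2.26 in cheek and 1.95, 0, 2.66 and 1.97 in abdomen, and Tbx1, which acts in head muscle, at 16.9, 14.5, 22.2 and 30.1 and 14.2, 7.51, 12.7 and 10.3, and neither passed the test.

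A further set of genes higher in cheek was still called with the muscle level as a covariate. Kcnc4, a voltage-gated potassium channel (chr3:107438298-107460287), stood at 8.76, 9.21, 7.69 and 5.91 FPKM in cheek and 0.85, 0.91, 1.01 and 1.66 in abdomen (log2 difference 2.39 ± 0.22, adjusted p = 6.93e-05, 0.00129 with the muscle covariate). Its highest abdomen value was in mouse 4 and remained far below every cheek value. The Kcnc4 promoter window (chr3:107458849-107459148, read along the minus strand, RefSeq, GRCm38.p6) is printed because this gene was called under all 24 other ways of processing. The RefSeq start lies inside the span given for the gene, and the window holds 1 GC box on the strand opposite to the one printed, in capitals.
Kcnc4: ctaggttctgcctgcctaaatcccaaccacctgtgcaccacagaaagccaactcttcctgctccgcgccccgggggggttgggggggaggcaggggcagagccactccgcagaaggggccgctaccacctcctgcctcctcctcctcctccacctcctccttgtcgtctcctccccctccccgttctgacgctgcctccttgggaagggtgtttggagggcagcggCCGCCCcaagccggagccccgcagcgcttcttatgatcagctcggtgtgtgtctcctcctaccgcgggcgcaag
Pcp4l1, of a family of small calmodulin-binding proteins, stood at 61.2, 52.3, 32.7 and 32.2 in cheek and 13.8, 11.2, 16.02 and 11.8 in abdomen (log2 difference 1.68 ± 0.19, adjusted p = 0.000716). Th, tyrosine hydroxylase of catecholamine synthesis, stood at 3.46, 2.7, 2.12 and 1.84 and 0.39, 0, 0.07 and 0.52 (log2 difference 2.06 ± 0.30, adjusted p = 0.00469). Dio2, the enzyme that activates thyroid hormone, stood at 2.1, 3.15, 6.32 and 2.61 and 0.42, 1, 0.95 and 0.76 (log2 difference 1.58 ± 0.29, adjusted p = 0.0163). Thbs4, a matricellular thrombospondin of tendon and muscle, stood at 5.53, 6.13, 4.95 and 9.45 and 2.15, 1.04, 1.17 and 1.94 (log2 difference 1.76 ± 0.24, adjusted p = 0.00363). None of these groups overlapped. With the covariate the adjusted p was 0.0125 for Pcp4l1, 0.0426 for Th, 0.0389 for Dio2 and 0.0452 for Thbs4. Without abdomen mice 2 and 3 it was 0.00995, 0.0915, 0.108 and 0.078. Pcp4l1, Th and Thbs4 were each still called with any 1 library left out. Dio2 lost its call without cheek mouse 2 (adjusted p up to 0.055). Pcp4l1, Th and Dio2 were picked out after their values were seen.

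The called gene with the largest rise was Hist1h2ap, a histone H2A gene, at 23, 16.97, 56.3 and 61.4 FPKM in cheek and 10.8, 4.59, 0.84 and 3.75 in abdomen (log2 difference 3.03 ± 0.68, adjusted p = 0.0487). Its highest values were in cheek mice 3 and 4, and histone genes share near-identical sequence. The guanylate-binding protein gene Gbp10, also one of several close copies, stood at 9.44, 10.2, 4.31 and 8.32 and 1.05, 2.22, 0.20 and 1.38 (log2 difference 2.42 ± 0.49, adjusted p = 0.0312). Padi2, which converts arginine to citrulline in proteins, stood at 10.6, 18.7, 7.18 and 11.1 and 1.88, 1.54, 1.49 and 4.66 (log2 difference 2.14 ± 0.38). Lrp2bp and Agbl1 had means of 3.63 ± 1.61 and 4.35 ± 1.34 FPKM in cheek against 0.34 ± 0.39 and 0.74 ± 0.75 in abdomen (SD, n = 4). Lrp2bp was still called with any 1 library left out. Hist1h2ap, Gbp10, Padi2 and Agbl1 lost their calls without abdomen mouse 3 or cheek mouse 1 or 2 (adjusted p up to 0.114). So did Hist1h2ap without abdomen mouse 2 or 4, back mouse 1, 2, 3 or 4 or cheek mouse 3 or 4, Gbp10 without cheek mouse 4, Padi2 without abdomen mouse 2 and Agbl1 without abdomen mouse 2 or cheek mouse 4.

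Several genes for secreted inhibitors and carriers were lower in cheek. Serpina3b (chr12:104127986-104139546) and Serpina3j (chr12:104300722-104320586) belong to a cluster of serine protease inhibitor genes on chromosome 12. Serpina3b stood at 32.99, 53.2, 30.98 and 25.4 FPKM in cheek and 359, 175, 309 and 149 in abdomen (log2 difference -2.74 ± 0.30, adjusted p = 0.000716), and Serpina3j at 14.3, 41.4, 33.5 and 15.8 and 434, 243, 422 and 161 (log2 difference -3.59 ± 0.51, adjusted p = 0.00722). The lowest abdomen value of each was well above the highest cheek value. Serpina3b and Serpina3j were each still called with any 1 library left out. Serpina3j was not called with the muscle covariate (adjusted p = 0.0615) or without abdomen mice 2 and 3 (adjusted p = 0.108). Of 9 tested members of the cluster, 2 were called, and all 9 had a negative difference (median -0.37). Serpina3n stood at 71.6, 71.9, 67.6 and 44.6 in cheek and 78.7, 83.7, 83.9 and 84.8 in abdomen (adjusted p = 0.259). Close copies in this cluster can share reads. The start-site windows of the pair that moved are chr12:104127746-104128045 and chr12:104314320-104314619 (plus strand, RefSeq, GRCm38.p6). That of Serpina3b holds 2 CCAAT boxes, a TATA box and, on the opposite strand, a Pbx-Hox site, and that of Serpina3j holds 2 CCAAT boxes, 1 on each strand, all in capitals. The Serpina3j window lies inside the span given for the gene.
Serpina3b: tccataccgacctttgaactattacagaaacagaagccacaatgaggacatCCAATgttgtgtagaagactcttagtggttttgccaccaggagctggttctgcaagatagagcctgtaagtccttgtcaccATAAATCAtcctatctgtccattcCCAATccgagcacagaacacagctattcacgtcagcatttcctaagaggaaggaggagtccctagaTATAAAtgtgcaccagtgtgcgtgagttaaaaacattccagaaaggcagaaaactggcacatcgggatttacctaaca
Serpina3j: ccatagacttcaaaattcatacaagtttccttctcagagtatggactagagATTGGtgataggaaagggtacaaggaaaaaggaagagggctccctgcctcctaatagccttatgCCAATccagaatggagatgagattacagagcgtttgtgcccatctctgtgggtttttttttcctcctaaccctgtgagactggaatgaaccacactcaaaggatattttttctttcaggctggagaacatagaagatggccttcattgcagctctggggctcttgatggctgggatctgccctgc

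Mup2, a major urinary protein, stood at 14.3, 14.6, 10.6 and 5.74 FPKM in cheek and 72.7, 63.5, 125 and 66.8 in abdomen (log2 difference -2.83 ± 0.36, adjusted p = 0.00363). All 14 tested genes of the major urinary protein, odorant binding protein and lipocalin families had a negative difference, and Mup2 was the 1 called. The major urinary protein genes are near-identical copies whose reads may be split. Gm2083, a predicted gene, stood at 2.82, 3.33, 6.93 and 0.10 and 20.8, 53.3, 77.9 and 117 (log2 difference -4.38 ± 0.81, adjusted p = 0.0287). The murinoglobulin gene Mug1, a protease inhibitor of the macroglobulin family, stood at 0, 0.01, 0.01 and 0 and 4.2, 1.22, 4.43 and 1.09 (log2 difference -2.48 ± 0.36, adjusted p = 0.00582). Its paralog Mug2 was listed at 0 in all cheek libraries against 1.75, 0.47, 1.26 and 0.58 in abdomen (adjusted p = 0.0112). Klk1, a tissue kallikrein, stood at 11.3, 10.3, 7.36 and 7.8 and 50.5, 34.7, 22.4 and 34.9 (log2 difference -1.86 ± 0.23, adjusted p = 0.00146). Wfdc21, for a secreted protein with a whey acidic protein core domain, stood at 83.3, 90.9, 118 and 63.95 and 275, 177, 265 and 166 (log2 difference -1.30 ± 0.20, adjusted p = 0.00697). It was 1 of 3 genes lower in cheek among 12 tested antimicrobial genes, with Defb1 and Pglyrp4, against 1.23% of all tested genes. Mup2, Mug1, Klk1 and Wfdc21 were each still called with any 1 library left out. Gm2083, Mug2, Defb1 and Pglyrp4 lost their calls without abdomen mouse 3 (adjusted p up to 0.124). So did Gm2083 without abdomen mouse 2 or cheek mouse 1 or 2, Defb1 without abdomen mouse 1 or 2 or cheek mouse 1, 2 or 3 and Pglyrp4 without abdomen mouse 2, back mouse 1, 2, 3 or 4 or cheek mouse 1, 2 or 4. Without both abdomen mice 2 and 3 the adjusted p was 0.0862 for Wfdc21 and 0.0651 for Mug2. Mug1 and Mug2 were under 0.5 FPKM in every cheek library and passed the filter only through the trunk sites, which partly sets their differences. Mug1, Mug2 and Klk1 were picked out after their values were seen.

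Enzymes of lipid and foreign compound metabolism were lower in cheek where they were called. Scd3, a fatty acid desaturase of the sebaceous gland (chr19:44203288-44244016), stood at 28.9, 60.8, 74.1 and 18 FPKM in cheek and 277, 232, 394 and 268 in abdomen (log2 difference -2.86 ± 0.38, adjusted p = 0.00469). Its paralog Scd1 did not pass the test, at 767, 625, 813 and 537 against 821, 1098, 858 and 898. Elovl5, which elongates polyunsaturated fatty acids, stood at 66.3, 74.2, 81.3 and 54.6 and 114, 125, 167 and 117 (log2 difference -0.91 ± 0.14, adjusted p = 0.00697). With Mgst1 these were 3 of 19 sebaceous gland genes called, against 1.23% of all tested genes called lower. In the list, 16 of the 19 had a negative difference (median -0.43). The log2 deviations of the list from the gene means summed to -7.78 to 2.21 in cheek and to -1.77 to 8.83 in abdomen. The peroxisomal oxidase gene Acox3 stood at 19.4, 17.7, 19.5 and 12.6 and 52.02, 44.6, 51.3 and 47.9 (log2 difference -1.49 ± 0.13, adjusted p = 4.39e-05). It was called under all 24 other ways of processing, and was picked out after its values were seen. In cholesterol synthesis, a list written after the values were seen, Lss (lanosterol synthase) and Pmvk (phosphomevalonate kinase) were lower among 20 genes tested, and Lss stood at 20.4, 18.5, 24.1 and 24.3 against 41.2, 44.5, 38.8 and 31.03. Scd3, Elovl5, Acox3 and Lss were each still called with any 1 library left out. Mgst1 and Pmvk lost their calls without abdomen mouse 1, 2 or 3, back mouse 1, 2, 3 or 4 or cheek mouse 1, 2 or 4 (adjusted p up to 0.139). Scd3 had an adjusted p of 0.0443 with the muscle covariate and of 0.0606 without abdomen mice 2 and 3, Elovl5 of 0.0898 and 0.103, and Lss of 0.1 and 0.153.

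Of 29 tested cytochrome P450 genes, 4 were lower and 0 higher in cheek, against 1.23% and 1.33% of all tested genes. Cyp2f2 stood at 60.3, 39.6, 54.01 and 45 FPKM in cheek and 177, 124, 236 and 125 in abdomen (log2 difference -1.69 ± 0.21, adjusted p = 0.00141), and Cyp2b23 at 6.25, 7.05, 21.4 and 9.72 and 52.1, 36.7, 76.8 and 31.3 (log2 difference -2.18 ± 0.47, adjusted p = 0.0421). Cyp2b10, whose groups overlapped, and the keratinocyte gene Cyp2b19 had log2 differences of -0.70 ± 0.15 and -0.92 ± 0.18. Of 25 tested genes for glutathione and glucuronic acid transferases, Gsta2, Gsta3 and Ugt1a1 were lower and 0 higher. Gsta3 stood at 11.9, 6.57, 12.03 and 7.75 in cheek and 24.02, 17.8, 24.9 and 20.5 in abdomen. The aldo-keto reductase gene Akr1c21 stood at 0, 0, 0 and 0.21 and 3.16, 2.13, 5.21 and 1.44 (adjusted p = 0.00131), and the alcohol dehydrogenase gene Adh1 at 42.1, 31.5, 31.8 and 22.6 and 88.4, 69.8, 99.2 and 61.8 (log2 difference -1.31 ± 0.18, adjusted p = 0.00333). Akr1c21 and Adh1 were picked out after their values were seen. Among fat cell genes, 1 of 17 was called, Retn, which encodes the hormone resistin, at 50.6, 20.5, 25.2 and 15.4 against 108, 86.2, 132 and 74.2 (log2 difference -1.93 ± 0.35, adjusted p = 0.0204), while Adipoq (adiponectin) stood at 149.8, 161, 119.7 and 42 and 109, 129, 212 and 121 and did not pass the test. Akr1c21 was under 0.5 FPKM in every cheek library and passed the filter only through the trunk sites. Cyp2f2, Akr1c21 and Adh1 were each still called with any 1 library left out. Cyp2b23, Cyp2b10, Cyp2b19, Gsta3, Gsta2, Ugt1a1 and Retn lost their calls without abdomen mouse 3 or cheek mouse 2 (adjusted p up to 0.134). So did Cyp2b23 without abdomen mouse 1 or 2, back mouse 3 or 4 or cheek mouse 1 or 4, Cyp2b10 and Ugt1a1 without abdomen mouse 1 or 2 or cheek mouse 1 or 4, Cyp2b19 without abdomen mouse 2 or cheek mouse 1, Gsta3 without cheek mouse 4, Gsta2 without abdomen mouse 2 or cheek mouse 4 and Retn without abdomen mouse 2. Without both abdomen mice 2 and 3 the adjusted p of Adh1 was 0.0542.

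A few abundant genes of the cornifying epidermis were called lower in cheek, and most genes of the related lists were not called. Krtdap, a keratinocyte differentiation protein and the most abundant called gene, stood at 2356, 1841, 2653 and 1579.6 FPKM in cheek and 3927, 3784, 5002 and 2808 in abdomen (log2 difference -0.88 ± 0.21, adjusted p = 0.0431). Lor (loricrin, the main protein of the cornified envelope) stood at 546, 509.9, 715 and 540.1 and 997, 1118, 1379.7 and 786 (log2 difference -0.87 ± 0.19, adjusted p = 0.0336), and Sbsn (suprabasin) at 1319, 1118, 1418 and 1062 and 1791, 1886, 2283 and 1625 (log2 difference -0.62 ± 0.14). The groups did not overlap, and the differences were below 1 on the log2 scale. Lor and Krt78 were the 2 of 19 interfollicular epidermis genes called, and 0 of 28 late cornified envelope and small proline-rich genes were called (median -0.47), with 10 lower and 0 higher at an unadjusted p under 0.05. Krtdap, Sbsn, Lor and Krt78 lost their calls without abdomen mouse 2 or 3 or cheek mouse 1, 2 or 4 (adjusted p up to 0.142). So did Krtdap and Sbsn without abdomen mouse 1 or back mouse 1, 2, 3 or 4 and Krt78 without abdomen mouse 4 or back mouse 1, 3 or 4. The calls of Krtdap, Sbsn and Lor were each lost without abdomen mice 2 and 3 and with the muscle covariate (adjusted p 0.364, 0.353 and 0.345).

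**Figure D5:**
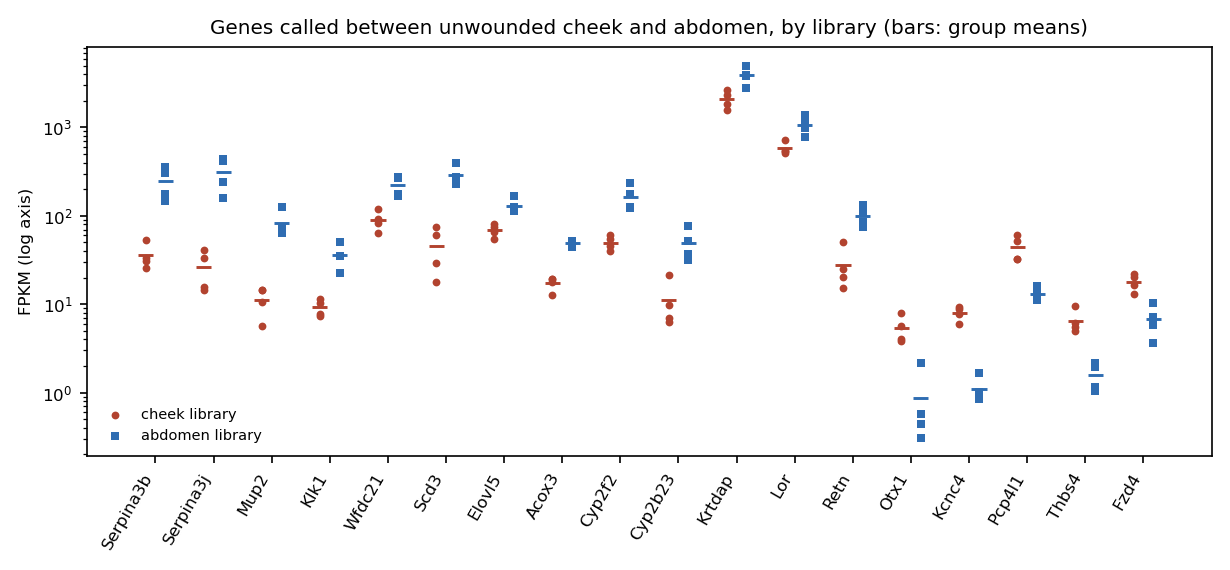
FPKM on a log axis (y) of 18 called genes (x), cheek libraries as red circles and abdomen libraries as blue squares, with bars at the group means (n = 4 each). From Serpina3b to Retn every abdomen library lies above every cheek library, and from Otx1 to Fzd4 every cheek library lies above.

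Few genes of the dermal matrix were called. Of 13 fibrillar and fibril-associated collagen genes, 10 small leucine-rich proteoglycan genes, 17 genes of collagen hydroxylation and cross-linking and 17 elastic fibre genes, 0 were called by limma, and 2, 4, 7 and 2 were lower at an unadjusted p under 0.05. At that threshold 1 gene of collagen hydroxylation and cross-linking was higher. The list medians were between -0.24 and -0.15. Col1a1 stood at 3064, 3691, 3641 and 2452 FPKM in cheek and 3559, 4483, 3946 and 5122 in abdomen (log2 difference -0.42 ± 0.18, adjusted p = 0.232). Sparc, a collagen-binding matricellular protein, stood at 3686, 4465, 3311 and 2131 and 4244, 4339, 4158 and 4654 (adjusted p = 0.301), Postn (periostin) at 189.6, 201, 210.2 and 216 and 217, 411, 285 and 408 (adjusted p = 0.101), and Prelp at 68.8, 58.8, 64.4 and 42.1 and 82.7, 95.1, 84.8 and 72.4 (adjusted p = 0.0714). Loxl1 (adjusted p = 0.309) did not pass the test either, and Col22a1, at 0.33 FPKM or below, was not tested. Genes of the junction between epidermis and dermis and of tendon were called. Col17a1, the hemidesmosome collagen, stood at 145, 142, 147 and 121 and 191, 195, 204 and 208 (log2 difference -0.52 ± 0.10, adjusted p = 0.0176), and Col7a1, the anchoring fibril collagen, at 4.58, 4.01, 4.77 and 4.79 and 7.23, 7.69, 6.99 and 8.35 (log2 difference -0.68 ± 0.10, adjusted p = 0.00672). Comp, a cartilage and tendon matrix protein, was lower at 0.42, 0.57, 0.34 and 0.44 against 1.26, 1.35, 1.11 and 1.66, and Vtn (vitronectin) higher at 6.4, 9.37, 5.05 and 6.33 against 4.43, 2.69, 3.65 and 3.35. Col7a1 was still called with any 1 library left out. Col17a1, Comp and Vtn lost their calls without abdomen mouse 2 or 3 or cheek mouse 2 (adjusted p up to 0.104). So did Comp without cheek mouse 1, 3 or 4 and Vtn without cheek mouse 1 or 4. The adjusted p of Col7a1 was 0.0548 with the muscle covariate and 0.0774 without abdomen mice 2 and 3.

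Signalling genes gave scattered calls. Of 44 tested genes of the Wnt pathway, 2 were higher and 2 lower in cheek, against 1.33% and 1.23% of all tested genes. The receptor gene Fzd4 stood at 20.1, 22.01, 12.96 and 16.5 FPKM in cheek and 7.16, 5.83, 3.6 and 10.4 in abdomen (log2 difference 1.41 ± 0.26, adjusted p = 0.0182), and the ligand gene Wnt16 at 2.69, 2.19, 2.1 and 2.79 and 1.08, 1.01, 1.28 and 1.14 (log2 difference 0.85 ± 0.18). The antagonist gene Dkk2 was lower at 7.88, 8.7, 7.79 and 4.59 against 12.8, 21.5, 23.2 and 17.7 (log2 difference -1.32 ± 0.25, adjusted p = 0.0219), as was the ligand gene Wnt3 (log2 difference -0.56 ± 0.13). Among 31 BMP and TGF-beta ligands and antagonists, Nog (noggin, a BMP antagonist) was higher in cheek at 4.72, 6.31, 4.23 and 3.97 against 2.33, 1.87, 2.26 and 2.87 (log2 difference 0.90 ± 0.15, adjusted p = 0.0109). Among 16 fibroblast growth factor genes, the receptor gene Fgfr4 and the carrier gene Fgfbp1 were lower, Fgfr4 at 3.74, 3.49, 4.26 and 2.55 against 6.86, 6.38, 7.69 and 5.82. Among 12 hair follicle stem cell and telogen genes, Lgr6 was higher at 4.19, 4.95, 7.33 and 4.99 against 2.18, 2.4, 1.2 and 3.6 (adjusted p = 0.0424). Nog and Fgfr4 were each still called with any 1 library left out. Fzd4, Wnt16, Dkk2, Wnt3, Fgfbp1 and Lgr6 lost their calls without abdomen mouse 2 or cheek mouse 1 or 2 (adjusted p up to 0.131). So did Wnt16 without abdomen mouse 1 or 3 or cheek mouse 4, Dkk2 without abdomen mouse 3, Wnt3 without abdomen mouse 3, back mouse 1 or 3 or cheek mouse 4, Fgfbp1 without abdomen mouse 3 or cheek mouse 4 and Lgr6 without abdomen mouse 1 or 3, back mouse 2, 3 or 4 or cheek mouse 3 or 4. With the muscle covariate none of these 8 genes was called, and the adjusted p was 0.142 for Nog, 0.0959 for Fgfr4, 0.193 for Fzd4 and 0.235 for Dkk2. Of 56 axon guidance and 11 hedgehog genes tested, 0 were called by limma, and 7 and 1 were higher and 4 and 1 lower at an unadjusted p under 0.05.

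Markers of other cell types gave few calls. Of the tested genes, 0 of 11 for macrophages, 0 of 8 for T cells, 0 of 9 for mast cells, 0 of 6 for neutrophils, 0 of 9 for Langerhans cells and MHC class II, 0 of 14 for blood vessels, 0 of 13 for Schwann cells, 0 of 7 for melanocytes and 0 of 13 for fibroblasts were called by limma. At an unadjusted p under 0.05, 4 T cell, 2 neutrophil, 3 fibroblast and 1 of the Langerhans cell and MHC class II genes were lower in cheek. At that threshold 3 blood vessel genes, 1 fibroblast and 1 melanocyte gene were higher. C1qa, a macrophage complement gene, stood at 249, 198, 163 and 131 FPKM in cheek and 201, 191, 215 and 159.8 in abdomen. Smooth muscle had 1 call, Myh11, lower in cheek at 15.8, 18.6, 15.4 and 10.7 against 23.2, 24, 29.5 and 24.4 FPKM (adjusted p = 0.0219). Chemokines had 2 of 30, Ccl20 and Cxcl16, both lower, with Ccl20 at 1.27, 0.47, 1.77 and 2.41 against 4.72, 8.76, 5.78 and 3.62. Myh11, Ccl20 and Cxcl16 lost their calls without abdomen mouse 2 or 3 (adjusted p up to 0.139). So did Ccl20 without cheek mouse 1 or 2 and Cxcl16 without back mouse 1, 2, 3 or 4 or cheek mouse 1, 2, 3 or 4. Interferon-stimulated genes had a positive difference in 20 of 21 (median 0.51), with 0 called by limma and 3 higher at an unadjusted p under 0.05. Of these, Ifi27l2a stood at 260.2, 185, 163 and 128 in cheek and 93.8, 126, 155 and 82.4 in abdomen (adjusted p = 0.233). The salivary or lacrimal, mammary and bone lists had 0 calls among 3, 5 and 2 tested genes.

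Cell division genes were highest in the cheek libraries that held hair shaft transcripts. The 22 tested genes had 0 calls by limma, also 0 at an unadjusted p under 0.05, and a mean log2(FPKM + 0.5) of 2.74, 2.62, 3.83 and 4.27 in cheek and 2.77, 3.19, 3.03 and 3.06 in abdomen, so that the highest values were those of cheek mice 3 and 4 and the lowest those of cheek mice 1 and 2. Mki67, the proliferation marker, stood at 4.88, 3.98, 11.1 and 17.7 FPKM and 3.89, 6.75, 4.74 and 8.28 (adjusted p = 0.611). The part of the hair cycle in the spread of other genes was not tested.

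The same mice gave wound libraries, which are separate RNA samples of the same animals and sites. Of the 186 genes higher in unwounded cheek, 178 were tested in the wounds, and 90 of these were called higher in cheek wounds than in abdomen wounds and 0 lower, against 7.52% of all 14023 tested genes called higher and 3.32% lower there. That split, 1054 genes higher and 465 lower, became 672 and 725 with median-ratio scaling. Of the 172 genes lower in unwounded cheek, 168 were tested in the wounds, and 90 were called lower and 1 higher. Since both sets of libraries share animals, the wounds are not an independent set of mice. Hoxc8 stood at 0.02, 0.17, 0.10 and 0.32 FPKM in cheek wounds and 9.24, 11.8, 14.2 and 13.6 in abdomen wounds (adjusted p = 2.64e-08). Otx1 stood at 4.74, 4.45, 4.79 and 4.17 and 1.66, 0.59, 0.54 and 0.47 (log2 difference 2.02, adjusted p = 0.000578), and Serpina3b at 17.9, 19.96, 6.24 and 17.5 and 116, 126, 175 and 97.7 (log2 difference -3.11, adjusted p = 0.00134). Some genes called in unwounded skin were not called in the wounds. Krtdap had a log2 difference of -0.44 (adjusted p = 0.0963) and Ccl20 of -0.48 (adjusted p = 0.464) in the wounds, and the difference between the states was not tested.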

How the data were processed

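RNA of whole skin was sequenced on BGISEQ-500 by a provider. Per the labels and the methods of the study, reads were mapped to mm10 with HISAT2, and aligned to transcripts with Bowtie2 2.2.5 and quantified with RSEM 1.2.12. The authors deposited FPKM values per gene and library, with no scaling between libraries and no read counts, so depth is unknown. Steps between the low values of 61 genes gave relative depths of 0.955 to 1.03 among the 8 libraries, a rough measure. The authors also deposited log2 fold changes and adjusted p-values of their own comparisons, made with DESeq2, which were not used. Of the per-sample columns, 0 were left unused, and 0 pairs of libraries held identical values.

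The analysis of log2(FPKM + 0.5) used limma 3.58.1 (trend and robust moderation, statmod 1.5.0, R 4.3.3) in 1 model of the 12 unwounded libraries, contrast cheek minus abdomen, over the 13956 of 18368 genes that reached 0.5 FPKM in 4 or more of them. Benjamini-Hochberg adjustment ran over all tested genes, with a threshold of 0.05. The wound libraries were fitted likewise. The code was tested on simulated data. Exact permutation tests used numpy 2.4.6, and figures matplotlib 3.10.9. Other ways of processing changed the pseudocount, the filter, the scaling, the moderation and the libraries or terms in the model, left out each library in turn, or used the muscle level. The last of these and the omission of both abdomen libraries low in muscle were added after seeing the data.

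Named genes are the 12 largest called rises and falls without overlap, the called members of each list (the 3 largest each way where over 6 were called), the most abundant members of lists without calls, genes the study names for unwounded skin, paralogs, and the 3 most abundant called genes each way. Genes outside this rule are said to be picked out after their values were seen, as were, without a remark beside them, Krt5, Krt31, Msx2, Myod1, Scd1, Serpina3n, Adipoq and the Hox genes that were not called. Some genes counted in these lists are not reported here singly or drawn. Members and lists were chosen with earlier results of these data known. Promoter windows, gene coordinates and names came from RefSeq tables on GRCm38.p6.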

Additional observations from a re-analysis of the deposited data

Results flagged for a closer look

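Single libraries lay far from the other 3 of their group in 21 of 264 groups of 4 values examined, 1 gene at 1 site each. The rule flags about 1 in 20 groups of normally distributed values. It also flags any group with 3 values at 0 and 1 above 0, so the count cannot be set against that rate. Cheek mouse 4 had 6 of the flagged values. Krt31 was at 328.2 FPKM in it, Serpina3n at 44.6, Akr1c21 at 0.21, Hoxb1 at 0.06, Hoxb6 at 0.09 and Hoxc9 at 0.11, the last 4 against 0 in the other 3 cheek libraries. Cheek mouse 1 stood apart for Hbb-bs at 162 and Hbb-bt at 23.2, and for H2-Ea-ps at 1.74 and Tgoln2 at 0.03. Cheek mouse 2 stood apart for Mup17 at 0.11, and cheek mouse 3 for Foxl2 at 0.26, Hoxa10 at 0.03 and Wnt3 at 14.03.

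Abdomen mouse 2, 1 of the libraries with little muscle RNA, was lowest for Hoxa10 at 2.64 FPKM, for Msx2 at 2.09 and for Myod1, listed at 0. Abdomen mouse 1 stood apart for Mup17 at 1.2, abdomen mouse 3 for Hbb-bs at 0.35 and Hbb-bt, listed at 0, and abdomen mouse 4 for Foxl2 at 0.02. Most of the values near 0 differ from the rest of their group by less than 0.5 FPKM, the amount added before taking logarithms.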

How the results depend on the processing

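The number of genes called between unwounded cheek and abdomen stayed within 1.5 times of 358 under 7 changes of pseudocount, filter, scaling or moderation and in the model with the mouse number as a replicate block, and ranged from 241 to 424 there. Median-ratio scaling gave 105 genes higher in cheek and quantile normalization 282 lower. With only the 8 cheek and abdomen libraries in the model, 113 genes were called (43 higher, 70 lower), and with all 24 libraries 1266 (810 higher, 456 lower). With the muscle level as a covariate 52 were called (14 and 38), and without both abdomen libraries of lowest muscle level 33 (7 and 26). Leaving out 1 library gave from 81 to 693 called genes, from 20 to 373 higher and from 56 to 320 lower. In the wounds, the 1054 higher and 465 lower became 672 and 725 with median-ratio scaling, 323 and 167 with only the 8 libraries, 479 and 290 with all 24, and from 323 to 1155 and from 185 to 641 with 1 library left out. The causes were not tested. Mouse numbers do not mark shared animals across sites, and same-numbered cheek and abdomen libraries deviated from their group means with correlations of 0.07, -0.32, 0.24 and -0.09. The replicate block gave 241 calls (112 higher, 129 lower), and in the wounds 824 higher and 303 lower. Of the called genes named in the text, 0 changed direction under any alternative. Acta1 belongs to the contraction genes whose mean is the muscle level, so the covariate removes much of its site difference by construction. Genes not called that changed sign were Acta1 (log2 difference -0.27 with the muscle covariate), C1qa (0.0068 without both abdomen libraries of lowest muscle level), Hoxa4 (-0.074 with quantile normalization, -0.17 with the covariate and -0.17 without both libraries) and Nr1d1 (-0.15 with the covariate and -0.087 without both libraries). With 1 library left out, the log2 difference ranged from -0.59 to 0.047 for Adipoq, -0.24 to 0.073 for C1qa, -0.061 to 0.10 for Hoxa4, -0.16 to 1.22 for Msx2 and -0.0086 to 0.26 for Nr1d1. Read counts are not part of the values, so the precision of genes near 0 FPKM is not known.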

Other observations

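Some genes differed by far more between mice of 1 site than most called genes did between the sites, and were not called. The adult beta-globin genes showed this in pairs. Hbb-b1 and Hbb-b2 are the beta-globin pair of 1 mouse haplotype, and Hbb-bs and Hbb-bt that of another. Hbb-b1 stood at 179, 599.8, 393 and 371 FPKM in cheek mice 1 to 4 and 0, 188, 380.1 and 0.13 in abdomen mice 1 to 4, while Hbb-bs stood at 162, 0, 0 and 0 and 478, 177, 0.35 and 180.4. Cheek mice 2, 3 and 4 and abdomen mouse 3 held mainly the first pair, abdomen mice 1 and 4 the second, and cheek mouse 1 and abdomen mouse 2 both. The adjusted p for the sites was 0.237 for Hbb-b1 and 0.39 for Hbb-bs. H2-Ea-ps, a gene of the major histocompatibility complex, stood at 1.74, 0.07, 0 and 0 in cheek and 2.07, 2.98, 182 and 161 in abdomen, and Mup17 at 0, 0.11, 0 and 0 and 1.2, 49.4, 90.2 and 59.8 (adjusted p = 0.264 and 0.118). Tgoln2 was listed at 0.03, 0, 0 and 0 and 14.2, 0, 10.9 and 21.4, and Rpl37rt at 156, 154, 182 and 182 and 221, 4.19, 9.4 and 4.54. In each of these genes some mice lay near 0 and others at a high level within 1 site. The mice were of an outbred stock, and 4 mice per site were sampled.

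Vanin genes, which encode pantetheinases, were lower in cheek. Vnn1 stood at 0.83, 2.3, 1.61 and 1.14 FPKM in cheek and 5.11, 4.03, 4.61 and 3.32 in abdomen (log2 difference -1.32 ± 0.21 SE, limma adjusted p = 0.00844), and Vnn3 at 0.48, 0.37, 0.40 and 0.24 and 2.58, 1.89, 1.53 and 0.77 (log2 difference -1.27 ± 0.24, adjusted p = 0.0175). Vnn1 was still called with any 1 library left out. Vnn3 lost its call without abdomen mouse 2 or 3 or cheek mouse 2 (adjusted p up to 0.0664). Vnn3 was under 0.5 FPKM in every cheek library and passed the filter only through the trunk sites. H2-K1, a class I histocompatibility gene with close copies, stood at 288, 97.5, 114 and 72.5 and 364, 342, 616 and 384 (adjusted p = 0.0366), and cheek mouse 1 lay apart from the other cheek mice. H2-K1 lost its call without abdomen mouse 1, 2 or 3, back mouse 2 or 3 or cheek mouse 2, 3 or 4 (adjusted p up to 0.124). Of the clock genes, Nr1d1 stood at 99.3, 96.9, 86.4 and 59.7 and 98.3, 62.1, 75.6 and 80.9 FPKM, and 0 of 17 were called by limma, with 3 at an unadjusted p under 0.05. Il11ra2 and Gm2002 held identical values in every library and were counted as 2 of the genes lower in cheek. All genes of these paragraphs were picked out after their values were seen.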
